A study of Mus musculus with 24 samples.

Results

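Selenoprotein mRNAs encode the proteins into which selenium is built as the amino acid selenocysteine. The set described here held 10 genes, namely Selenow, Selenom, Selenok, Selenot, Selenof, Selenop, Selenos, Gpx1, Gpx4 and Txnrd1. Its members were the probe sets whose single gene symbol in the array annotation was one of these symbols or its older form, such as Sepw1 for Selenow or Sels for Selenos. This gave 21 probe sets, of 45037 on the array, for 10 of the 18193 genes with a symbol of their own. Of these, 17 probe sets reached a log2 signal of 4 in at least 6 arrays, with at least 1 for each gene. The other 4, a pair for Selenot and 1 each for Selenof and Txnrd1, were below 4 on all arrays. They are used further only in the means over all probe sets of a gene in the last section. The genes were selected on their polyribosomal minus total values in these arrays, so their values in that contrast are given as a description without a test.

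Cerebral cortex was taken on postnatal day 7 from male FVB mice that were wild type (WT) or knockout for Fmr1 (Fmr1 KO). Fmr1 encodes FMRP, an RNA-binding protein found on polyribosomes, and its loss in the knockout is constitutive, not limited to a cell type. Each genotype gave 6 lysates, each made from 2 pooled mice, and the animals were bred as littermates. From each lysate 20% was kept as total RNA, and the remainder was separated on a sucrose gradient of 20% to 50% into 16 fractions, and the pool of fractions 10 to 13, whose mRNAs carry at least 6 ribosomes, is the polyribosomal RNA. There were thus 4 groups of 6 Affymetrix whole-genome mouse arrays: WT total, WT polyribosomal, Fmr1 KO total and Fmr1 KO polyribosomal RNA. The labels name no treatment. A lower value in polyribosomal RNA means a smaller share of that pool. It need not mean less protein made, since mRNAs on fewer than 6 ribosomes lie outside the pool, and protein was not measured. Equal amounts of RNA go onto an array, so all values are relative to the rest of the RNA of that sample.

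Selenocysteine is encoded by UGA, which otherwise ends translation. A hairpin in the 3′ untranslated region of the mRNA, the SECIS element, is bound by SECISBP2 and recruits the dedicated elongation factor EEFSEC with the selenocysteine transfer RNA, so that the ribosome reads through the UGA. The brain retains selenium when other organs lose it, and receives it largely as selenoprotein P, which neurons take up through the receptor encoded by Lrp8. The best known selenoproteins are redox enzymes, and several others sit in the endoplasmic reticulum (ER).

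The start of an mRNA is shown here for 4 members because mRNAs of ribosomal proteins, a group that is also low in the polyribosomal pool, often begin with a C followed by a run of pyrimidines, the TOP motif. The 4 are the lowest member, 2 others that were low and the highest one. Each line gives 10 bases before and 20 bases from the annotated start, 5′ to 3′ on the strand of the gene, from RefSeq on GRCm38.p6, with the first 5 transcribed bases in capitals.
Selenow, chr7:15922352-15922381, minus strand: gtgaggcagtCGGCTgtgcgcacggcccca
Gpx1, chr9:108339070-108339099, plus strand: acaggagctaGACCAgacccgccctaggca
Selenot, chr3:58576626-58576655, plus strand: ttccctcgccGACCTtggcggagcgcgcct
Selenos, chr7:66079639-66079668, plus strand: acatagggccGAACCggaagcgcagagcag

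None of the 4 capital runs is a C followed by 4 pyrimidines (C or T, read on the strand of the gene only). Over all 10 genes, 0 of 17 annotated starts had such a run at the start. It was present at 2.51% of the 32851 starts in the table and at 15.7% (8 of 51) of those of cytosolic ribosomal protein genes. With the run allowed to begin within 5 bases of the annotated start, the share was 0 of 17 for the members, 18.3% for all starts and 41.2% for ribosomal protein genes. Such runs do occur further from some of the members' starts, as in the Selenot line above. Only 1 base run was searched, and an annotated start need not be the one used in cortex. The search found the run at only 15.7% of ribosomal protein starts. A count of 0 in 17 therefore does not show that the members lack the motif.

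Most of the members made up a smaller share of the polyribosomal RNA than of the total RNA, and a pair of them made up a larger share. With the brightest probe set of each gene, Selenow, Selenop, Gpx1, Gpx4, Selenot, Selenom and Selenof were lower in polyribosomal RNA in 12 of 12 lysates. Selenos and Txnrd1 were higher in 12 of 12, and Selenok was lower in 11. Across all 9955 genes measured, 21.1% were lower and 27.5% were higher in 12 of 12 lysates. Within WT, 8 members were lower and 2 higher in 6 of 6 lysates, beside 24.9% and 32.5% of all genes, and within Fmr1 KO 7 were lower and 2 higher, beside 25% and 34.2%. The median difference of the 10 genes was -1.22 in WT and -1.26 in Fmr1 KO on the log2 scale, where that of all genes was 0.09 in each genotype. Because the set rests on this contrast, nothing is read from these counts beyond the order and size of the members' values.

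**Figure D1:**
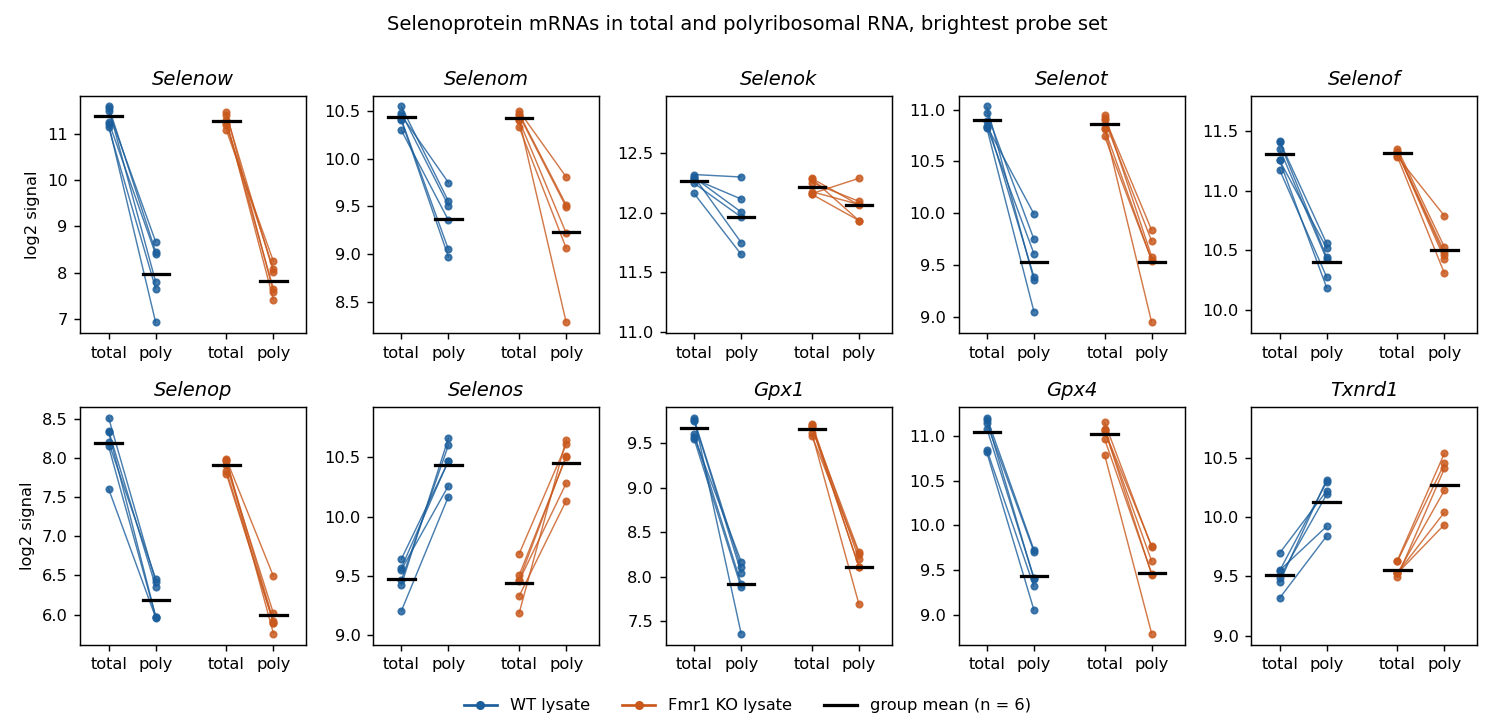
Log2 signal of the brightest probe set of each of the 10 genes in total and polyribosomal (poly) RNA. Each line joins the total and the polyribosomal array of 1 lysate (blue WT, orange Fmr1 KO), and black bars are group means over 6 lysates. The lines of Selenow drop furthest, with a mean difference of -3.40 in WT, and those of Selenos and Txnrd1 go up in all 12 lysates; each panel has its own axis.

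Selenow encodes a small cytosolic redox protein that is abundant in muscle and brain. Its log2 signal in WT total RNA had a lowest value of 11.15, a median of 11.38 and a highest value of 11.60, and in WT polyribosomal RNA these were 6.92, 8.10 and 8.67. In Fmr1 KO they were 11.08, 11.27 and 11.47 in total and 7.40, 7.83 and 8.24 in polyribosomal RNA. The highest polyribosomal array thus lay more than 2 log2 units under the lowest total array in both genotypes. The polyribosomal minus total difference was -3.40 ± 0.57 (SD, n = 6) in WT, 10.6-fold lower, and -3.46 ± 0.43 (SD, n = 6) in Fmr1 KO. Of 9955 genes ordered by the mean difference over the 12 lysates, Selenow was the 6th from the lowest. This probe set is of the _x_at kind, which can bind related transcripts. A second Selenow probe set, of the _at kind, gave a larger difference, -4.50 ± 0.48 in WT and -4.70 ± 0.46 in Fmr1 KO (SD, n = 6 each).

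Selenop encodes the secreted selenium carrier selenoprotein P, the member with many selenocysteines. In WT its log2 signal ran from 7.60 over a median of 8.27 to 8.51 in total RNA, and from 5.96 over 6.16 to 6.46 in polyribosomal RNA. In Fmr1 KO it ran from 7.80 over 7.93 to 7.98 in total RNA and from 5.76 over 5.90 to 6.49 in polyribosomal RNA. Polyribosomal and total arrays did not overlap in either genotype. The difference was -2.00 ± 0.27 (SD, n = 6) in WT, 4.00-fold lower, and -1.92 ± 0.24 (SD, n = 6) in Fmr1 KO. By the mean over the 12 lysates, Selenop was the 116th lowest of the 9955 genes.

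The glutathione peroxidases followed closely. Gpx1 encodes the cytosolic enzyme that reduces hydrogen peroxide. It stood at 9.55 to 9.79, with a median of 9.68, in WT total RNA and at 7.36 to 8.17, with a median of 7.98, in WT polyribosomal RNA. The Fmr1 KO arrays stood at 9.59 to 9.72 (median 9.68) and 7.69 to 8.28 (median 8.15). Every polyribosomal array was below every total array, by a mean of -1.76 ± 0.35 in WT and -1.56 ± 0.21 in Fmr1 KO (SD, n = 6 each).

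Gpx4 encodes the enzyme that reduces lipid peroxides in membranes and protects cells from ferroptosis. Its brighter probe set stood at 10.82 to 11.20 (median 11.11) in WT total RNA and 9.05 to 9.73 (median 9.41) in WT polyribosomal RNA. In Fmr1 KO the ranges were 10.79 to 11.15 (median 11.06) and 8.79 to 9.77 (median 9.53). The groups again did not overlap, and the difference was -1.61 ± 0.15 in WT and -1.55 ± 0.25 in Fmr1 KO (SD, n = 6 each). The dimmer probe set gave -1.27 ± 0.17 and -1.39 ± 0.23 (SD, n = 6 each).

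Selenot, Selenom and Selenof encode thioredoxin-like proteins of the ER. For Selenot the signal was 10.82 to 11.03 (median 10.87) in WT total and 9.05 to 9.99 (median 9.50) in WT polyribosomal RNA, against 10.74 to 10.95 (median 10.86) and 8.95 to 9.84 (median 9.57) in Fmr1 KO. Its difference was -1.37 ± 0.34 in WT and -1.33 ± 0.29 in Fmr1 KO (SD, n = 6 each), and a second probe set gave -1.41 ± 0.40 and -1.20 ± 0.32 (SD, n = 6 each). The values did not overlap between RNA kinds in either genotype.

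Selenom stood at 10.30 to 10.55 (median 10.43) in WT total and 8.97 to 9.75 (median 9.43) in WT polyribosomal RNA. In Fmr1 KO these ranges were 10.33 to 10.50 (median 10.43) and 8.28 to 9.81 (median 9.35). The difference was -1.07 ± 0.28 in WT and -1.20 ± 0.50 in Fmr1 KO (SD, n = 6 each), and the larger spread in Fmr1 KO included 1 lysate at -2.13. Selenof stood at 11.18 to 11.42 (median 11.31) in WT total and 10.19 to 10.56 (median 10.43) in WT polyribosomal RNA, and at 11.29 to 11.36 (median 11.33) and 10.31 to 10.79 (median 10.47) in Fmr1 KO. It showed the smallest SD in WT, with a difference of -0.91 ± 0.11 (SD, n = 6), and -0.82 ± 0.17 (SD, n = 6) in Fmr1 KO. For both genes, the polyribosomal arrays all lay below the total arrays.

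Selenok and Selenos both encode ER membrane proteins that take part in the removal of misfolded proteins from the ER, and both carry selenocysteine close to their C-terminal end. Selenok was the member with the smallest difference and the one whose polyribosomal and total arrays overlapped. Its signal was 12.16 to 12.32 (median 12.29) in WT total and 11.65 to 12.30 (median 11.98) in WT polyribosomal RNA, and 12.16 to 12.29 (median 12.22) and 11.93 to 12.29 (median 12.07) in Fmr1 KO. The difference was -0.31 ± 0.20 in WT, where 6 of 6 lysates were lower, and -0.16 ± 0.16 in Fmr1 KO (SD, n = 6 each), where 5 of 6 were. A second probe set gave -0.41 ± 0.20 and -0.25 ± 0.19 (SD, n = 6 each), also lower in 6 and 5 lysates.

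Selenos went the other way. Its signal was 9.20 to 9.64 (median 9.51) in WT total and 10.17 to 10.66 (median 10.47) in WT polyribosomal RNA, against 9.19 to 9.69 (median 9.46) and 10.13 to 10.65 (median 10.51) in Fmr1 KO. All polyribosomal arrays were above all total arrays, by 0.96 ± 0.20 (SD, n = 6) in WT, 1.95-fold, and 1.01 ± 0.24 (SD, n = 6) in Fmr1 KO, 2.01-fold. Counted from the lowest, Selenos was number 9708 of the 9955 genes. Its 3 probe sets differed in size. The dimmest gave 1.28 ± 0.24 in WT and 1.38 ± 0.17 in Fmr1 KO (SD, n = 6 each). The remaining one, of the _x_at kind, gave 0.26 ± 0.43 and 0.46 ± 0.28 (SD, n = 6 each), with 2 WT lysates lower in polyribosomal RNA.

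Txnrd1 encodes cytosolic thioredoxin reductase, which keeps thioredoxin reduced and also has its selenocysteine near the C-terminal end. It stood at 9.32 to 9.70 (median 9.52) in WT total and 9.84 to 10.31 (median 10.20) in WT polyribosomal RNA, and at 9.50 to 9.63 (median 9.53) and 9.94 to 10.54 (median 10.32) in Fmr1 KO. The polyribosomal arrays lay above the total arrays in both genotypes, by 0.62 ± 0.18 in WT and 0.71 ± 0.21 in Fmr1 KO (SD, n = 6 each). A second probe set was higher by 0.65 ± 0.29 and 0.91 ± 0.34 (SD, n = 6 each).

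**Figure D2:**
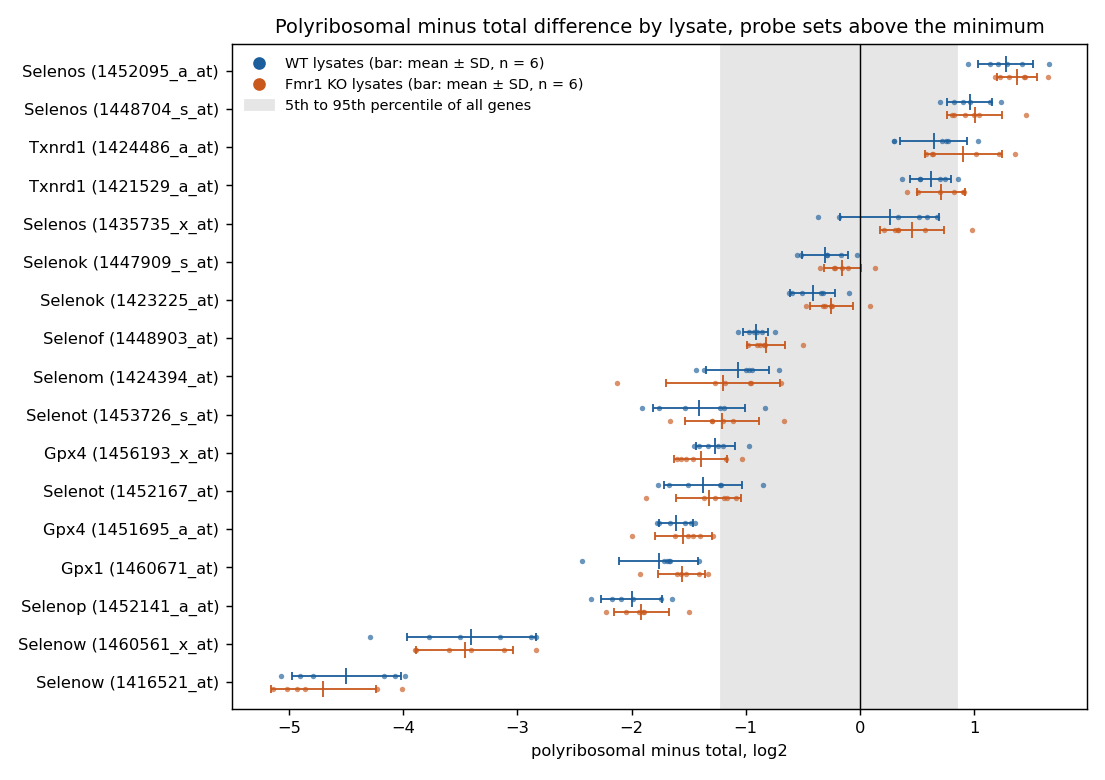
Polyribosomal minus total difference (log2) of the 17 probe sets of the 10 genes that passed the minimum, 1 point per lysate, with mean and SD over 6 lysates for WT (blue) and Fmr1 KO (orange). The grey band spans the 5th to the 95th percentile of all genes, -1.22 to 0.85, and both Selenow probe sets lie far to its left.

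In order of the WT difference, the genes ran from Selenow at -3.40 through Selenop at -2.00, Gpx1 at -1.76, Gpx4 at -1.61, Selenot at -1.37, Selenom at -1.07, Selenof at -0.91 and Selenok at -0.31 to Txnrd1 at 0.62 and Selenos at 0.96. Selenow was apart from its neighbour in every lysate, with a highest value of -2.83 where the lowest of Selenop was -2.36. From Selenop to Selenof, each gene and the next differed by less than the sum of their SDs over lysates. These genes were not compared with each other within lysates, so no firm order is claimed for them. Selenof and Selenok did not overlap in WT, with a highest Selenof value of -0.74 and a lowest Selenok value of -0.55. In WT the 5th and 95th percentiles of all genes were -1.24 and 0.83. Polyribosomal and total arrays did not overlap for 9 of the 10 genes in WT and 9 in Fmr1 KO, where this held for 39.8% and 41.9% of all genes.

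The polyribosomal arrays of a group varied more among themselves than the total arrays did. The SD of log2 signal was larger in polyribosomal than in total RNA for 9 of 10 members in WT and 10 of 10 in Fmr1 KO, as it was for 83.4% and 80.2% of all genes. The median SD of the members was 0.248 in WT polyribosomal and 0.116 in WT total RNA. Some arrays held the lowest value of their group for 5 of the 10 genes. WT polyribosomal array 5 did so for Selenom, Selenok, Selenos, Selenof and Gpx1, and Fmr1 KO polyribosomal array 1 for Selenom, Selenos, Selenof, Gpx4 and Gpx1. Fmr1 KO total array 1 did so for Txnrd1, Selenok, Selenof, Gpx4 and Selenop. Without the lysates of any 1 replicate number, the differences moved little, for example to between -3.52 and -3.23 for Selenow and to between 0.91 and 1.01 for Selenos in WT.

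The genes whose signal went up and down most like that of Selenow over the 24 arrays were Ctxn1 (Pearson's r = 0.990), Snhg8 (0.989), 1110065P20Rik (0.988), Deaf1 (0.988) and Slc25a39 (0.987), of 9652 genes with a mean log2 signal of at least 4. Their mean polyribosomal minus total differences lay between -4.28 and -2.01. For Selenos they were Creg1 (r = 0.975), Oscp1 (0.961), Cryl1 (0.961), Cxxc5 (0.960) and Med16 (0.957), with differences between 0.68 and 1.55. These arrays share the split into polyribosomal and total RNA and the lysates, and the r values describe that likeness only.

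Other selenoprotein genes, which do not belong to the 10, were on both sides too, and for them the contrast was tested. They are the selenoprotein genes left after the 10 were chosen on this same contrast. Their counts, and their gap to the 10, are therefore no independent evidence. Of 14 on the list, 13 were on the array and 9 were bright enough. In WT, 3 were lower and 5 were higher in polyribosomal RNA (limma with the lysate as a block, adjusted p under 0.05), where 28.4% of 9725 genes were lower and 37.5% were higher. The list's median difference was 0.27. In Fmr1 KO 2 were lower and 4 higher, against 28.2% and 38.7% of all genes.

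The largest fall was that of Selenoh, a nuclear redox protein, at -2.01 (SE 0.11, limma adjusted p = 8.62e-08) in WT and -1.80 in Fmr1 KO, lower in 12 of 12 lysates. Msrb1, which encodes a methionine sulfoxide reductase, fell by 0.91 in WT (SE 0.158, limma adjusted p = 0.000388) and by 0.84 in Fmr1 KO. Dio2, the thyroid hormone activating deiodinase of glia, fell by 0.51 in WT (limma adjusted p = 0.00110) and stood at -0.22 in Fmr1 KO, where it did not pass (limma adjusted p = 0.0800). The genotype difference in its contrast was 0.28 (SE 0.150, limma adjusted p = 0.999). In WT its mean polyribosomal log2 signal was 4.06, close to the minimum of 4.

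The other thioredoxin reductase genes rose. Txnrd3, known from testis, rose by 1.41 in WT (SE 0.084, limma adjusted p = 1.60e-07) and 1.12 in Fmr1 KO, and mitochondrial Txnrd2 rose by 0.83 (SE 0.096, limma adjusted p = 1.95e-05) and 0.98. All 12 lysates were higher for both at the brightest probe set. The dimmer Txnrd3 probe sets were higher too, with WT means of 4.28 and 4.15 in polyribosomal and 3.53 and 3.44 in total RNA. They met the minimum of 4 through polyribosomal arrays, so their direction is tied to that filter and adds no support. A dimmer Txnrd2 probe set went the opposite way to the brightest, at -0.46 in WT and -0.56 in Fmr1 KO, lower in 12 of 12 lysates. Its WT means were 4.14 in total and 3.68 in polyribosomal RNA. It met the minimum of 4 through total arrays, so this direction is tied to the filter and its size is uncertain. Selenoo, a mitochondrial enzyme gene, rose by 0.57 in WT (limma adjusted p = 0.000686) and by 0.48 in Fmr1 KO.

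Sephs2, which makes the selenium donor selenophosphate and is itself a selenoprotein, rose by 0.35 in WT (limma adjusted p = 0.00301) and 0.29 in Fmr1 KO (limma adjusted p = 0.0265) at its brightest probe set. Its 3 probe sets did not share a direction in WT, with means of 0.35, 0.02 and -0.33, and the mean of the 3 was 0.01 in WT and -0.03 in Fmr1 KO, neither past the threshold. The Fmr1 KO call was also lost without the lysates numbered 2, 5 or 6 (limma adjusted p = 0.0667, 0.0765 and 0.0812). Selenon, a gene of ER calcium handling, rose by 0.27 in WT (limma adjusted p = 0.0391), a call that was lost without the lysates numbered 2, 3, 4 or 6 (adjusted p = 0.139, 0.0863, 0.0542 and 0.115), and stood at 0.13 in Fmr1 KO. Selenoi, an enzyme gene of phospholipid synthesis, stood at -0.01 in both genotypes.

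Genes that make and deliver selenocysteine had values on both sides. Of 15 listed, 12 were tested. In each genotype 3 rose, 3 fell and 6 did not pass, with a WT median of 0.05. Of all genes, 37.5% rose and 28.4% fell in WT, and 38.7% and 28.2% did in Fmr1 KO, so nothing is read from these counts. The elongation factor gene Eefsec rose by 0.70 in WT (SE 0.109, limma adjusted p = 0.000181) and 0.49 in Fmr1 KO, and the SECIS-binding protein gene Secisbp2 by 0.54 (SE 0.081, limma adjusted p = 0.000129) and 0.66. Sephs1, the selenophosphate synthetase relative without selenocysteine, fell by 0.42 in WT and 0.39 in Fmr1 KO. Pstk, the kinase that prepares the selenocysteine transfer RNA, fell by 0.37 in WT (limma adjusted p = 0.0116) and 0.23 in Fmr1 KO, where the call was lost without number 2, 4 or 6 (adjusted p = 0.0591, 0.111 and 0.0634). Of the receptors for selenoprotein P, Lrp8 fell by 0.46 in WT (SE 0.099, limma adjusted p = 0.00179) and by 0.53 in Fmr1 KO, in 12 of 12 lysates, Lrp1 stood at 0.18 and -0.03 without passing, and Lrp2 was too dim.

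Redox genes without selenocysteine and ER genes were set beside the members because they share functions with them. Their counts stand beside 37.5% of all genes that rose and 28.4% that fell in WT. In Fmr1 KO these shares were 38.7% and 28.2%. Of 20 redox genes tested in WT, 9 rose and 6 fell, with a median of 0.13; the peroxiredoxin genes Prdx4 and Prdx3 rose by 0.72 and 0.62, while Glrx5, of iron-sulfur cluster assembly, fell by 1.35 and mitochondrial Txn2 by 0.94. In Fmr1 KO 10 rose and 7 fell. Of 16 genes of ER folding and degradation in WT, 5 rose and 2 fell, with a median of 0.00; Herpud1 and Pdia6 rose by 0.92 and 0.67, and Pdia3 and Canx fell by 0.65 and 0.43. In Fmr1 KO 6 rose and 3 fell. These 8 named differences each had a limma adjusted p of 0.00162 or less in WT.

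A pair of lists, chosen because earlier results of these arrays had shown them low in the polyribosomal pool, gives the scale, and their direction is therefore no independent evidence. Among all genes, 28.4% fell and 37.5% rose in WT. Of 8 G protein gamma subunit genes tested, 7 fell and none rose in WT, with a median of -0.93. Gng10 fell by 1.66 (SE 0.088) and Gng13 by 3.24 (SE 0.109), the latter to a mean log2 signal of 3.07, below the minimum, so that its size is uncertain. Of 44 cytosolic ribosomal protein genes, 36 fell, 2 rose and 6 did not pass, with a median of -0.58; Rps27l fell by 2.70 and Rpl41 by 2.57, and the relatives Rps4l and Rpl7l1 rose by 1.72 and 0.67. Probe sets of ribosomal protein genes can bind the transcripts of pseudogenes.

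**Figure D3:**
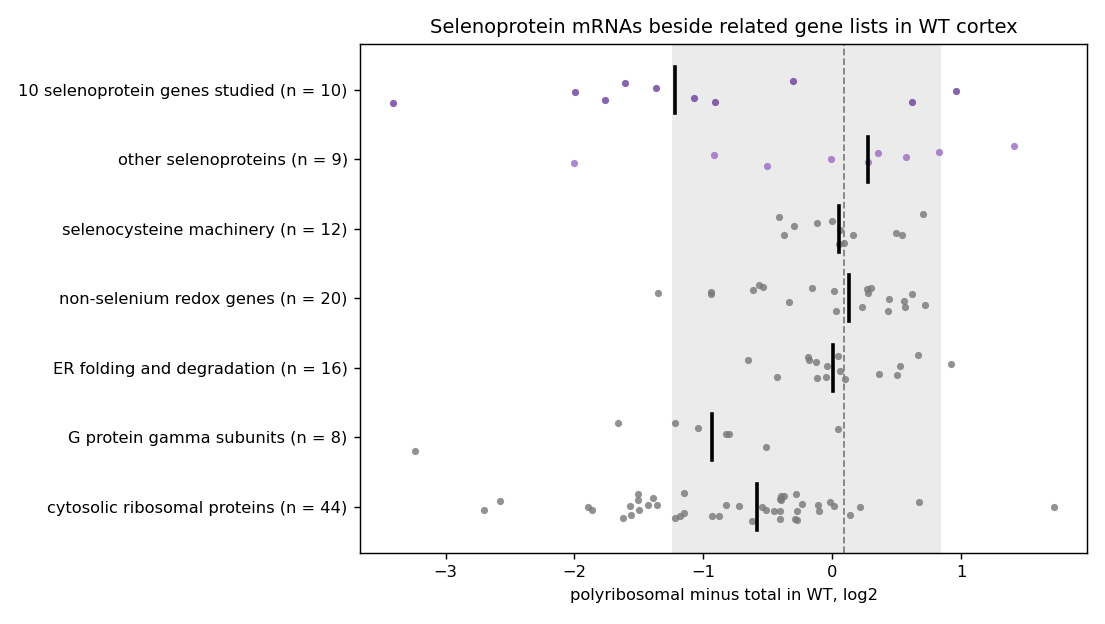
Polyribosomal minus total difference in WT (log2) for the 10 selenoprotein genes, 9 other selenoprotein genes and 5 related lists, 1 point per gene with the list's median as a black bar. The grey band is the 5th to 95th percentile of all genes and the dashed line their median of 0.09. The median of the 10 genes is -1.22 and that of the other selenoproteins 0.27. The 10 were chosen on this contrast, so the gap between those medians is no independent evidence.

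Genotype was not used in choosing the members, so it was tested. The question was whether the loss of FMRP goes with a change in selenoprotein mRNAs in the polyribosomal pool, in the lysate, or in the relation of the 2. The Fmr1 signal of all knockout arrays lay below that of all WT arrays of the same RNA kind, by 3.71 on the log2 scale in polyribosomal and 3.28 in total RNA at the brightest probe set. In polyribosomal RNA, 0 of the 17 member probe sets passed (limma, adjusted over 17687 probe sets, of which 0.017% were called), and 0 had an unadjusted p under 0.05, against 2.67% of all. In total RNA 0 of 17 passed (0.0392% of 17850 were called) and 1, that of Selenop, had an unadjusted p under 0.05, against 5% of all. For the genotype difference in the polyribosomal minus total contrast, 0 of 17 passed, 0 had an unadjusted p under 0.05, and of all 18544 probe sets 0% and 2.38% did.

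In polyribosomal RNA the differences of the member probe sets lay between -0.20 and 0.19, and the half-width of their 95% intervals had a median of 0.297. For Selenow the Fmr1 KO minus WT difference was -0.16 (95% interval -0.69 to 0.38), the widest interval of the 10 genes. Gpx1 stood at 0.19 (-0.11 to 0.49), Txnrd1 at 0.14 (-0.13 to 0.41), Selenom at -0.13 (-0.59 to 0.32), Selenok at 0.10 (-0.15 to 0.35) and Selenof at 0.10 (-0.12 to 0.32). Gpx4 at 0.03 (-0.31 to 0.38), Selenos at 0.01 (-0.24 to 0.26) and Selenot at 0.01 (-0.35 to 0.36) were nearest to 0. Leaving out 1 replicate number at a time moved the larger of these values, to 0.05 without number 5 for Gpx1, to -0.01 without number 1 and -0.27 without number 5 for Selenom, and to -0.01 without number 1 and -0.33 without number 3 for Selenow. The 12 arrays of WT and Fmr1 KO overlapped for each of the 10 genes, while 0.119% of all probe sets did not overlap.

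Total RNA was measured more tightly, with a median half-width of 0.129. Of the 10 genes, 8 had values below 0, with a median of -0.03 where that of all genes was -0.01. Selenop had the largest, at -0.28 (SE 0.119, 95% interval -0.54 to -0.02, limma adjusted p = 0.982). The WT total values of Selenop in lysates 1 to 6 were 8.20, 8.35, 8.51, 7.60, 8.33 and 8.15, and those of Fmr1 KO were 7.80, 7.96, 7.98, 7.90, 7.83 and 7.98. In WT 5 of 6 thus lay above all Fmr1 KO values and the number 4 lysate lay below them all. Its difference in polyribosomal RNA was -0.20 (95% interval -0.49 to 0.10) and that in the contrast was 0.08 (-0.22 to 0.39). In a bulk lysate, fewer cells that express a gene and less of its RNA per cell cannot be told apart.

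The levels of cell type markers stand beside this value, since the makeup of lysates can vary. The signal of Ttr, which defines choroid plexus, varied from 2.65 to 11.43 between total arrays. In WT lysates 1 to 6 it was 11.43, 10.72, 3.37, 10.93, 6.92 and 10.20. In Fmr1 KO it was 3.03, 10.66, 2.65, 10.99, 11.30 and 2.86. The 2 choroid plexus markers bright enough to be tested both had values below 0 in Fmr1 KO total RNA (median -1.07), with no unadjusted p under 0.05. The other choroid plexus markers were mostly dim, with 9 of 11 below a log2 signal of 4 in every total array. The mean of the 8 microglial markers in total arrays was 4.10 to 4.34 for WT and 3.85 to 4.22 for the knockout. Only 2 of them were bright enough to be tested, both with lower values in Fmr1 KO at an unadjusted p under 0.05. Such a p was found for 5% of all probe sets in total RNA, and neither marker passed after adjustment. The 7 astrocyte markers had means of 9.17 to 9.53 (WT) and 9.11 to 9.59 (Fmr1 KO), and in total RNA 5 of the 7 had values below 0 in Fmr1 KO, of which Aqp4, at -0.15, had an unadjusted p under 0.05. Of 6 oligodendrocyte lineage markers tested in total RNA, 5 had values below 0 in Fmr1 KO (median -0.10). The 2 tested markers of endothelium and pericytes (median 0.03) and the 2 of meninges (median 0.11) were all above 0. Excitatory neuron and interneuron markers each had 3 values below and 4 above 0. No marker of these lists passed after adjustment in total RNA. The part of any of these cells in the Selenop value was not tested. The receptor gene Lrp8 stood at -0.24 in total RNA (SE 0.077, limma adjusted p = 0.837) and -0.32 in polyribosomal RNA (SE 0.140), and passed in neither.

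The other 9 genes were nearer to 0 in total RNA. Selenow stood at -0.10 (95% interval -0.30 to 0.10), Selenok at -0.05 (-0.16 to 0.06), Txnrd1 at 0.05 (-0.09 to 0.18), Selenot at -0.04 (-0.16 to 0.08), Selenos at -0.04 (-0.23 to 0.15) and Gpx4 at -0.03 (-0.21 to 0.15). Gpx1 at -0.01 (-0.13 to 0.11), Selenof at 0.01 (-0.11 to 0.12) and Selenom at -0.00 (-0.12 to 0.11) were at most 0.01 from 0. The second probe set of Selenok stood at -0.10 (-0.22 to 0.02), and neither of its probe sets passed. WT and Fmr1 KO arrays overlapped for each gene, where 0.325% of all probe sets did not.

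No genotype difference in the polyribosomal minus total contrast was detected, and the intervals give the size it could have. It lay between -0.20 and 0.26 over the 17 probe sets, with a median half-width of 0.291. The value was -0.06 (95% interval -0.57 to 0.46) for Selenow, 0.20 (-0.13 to 0.53) for Gpx1, 0.15 (-0.10 to 0.40) for Selenok, -0.13 (-0.56 to 0.30) for Selenom and 0.09 (-0.13 to 0.32) for Selenof. Without number 5 the Gpx1 value was 0.04 and that of Selenok 0.05, and without number 1 the Selenom value was 0.00. The other 4 genes besides Selenop lay between 0.05 and 0.09. For comparison, the WT difference of Selenow between polyribosomal and total RNA was -3.40.

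**Figure D4:**
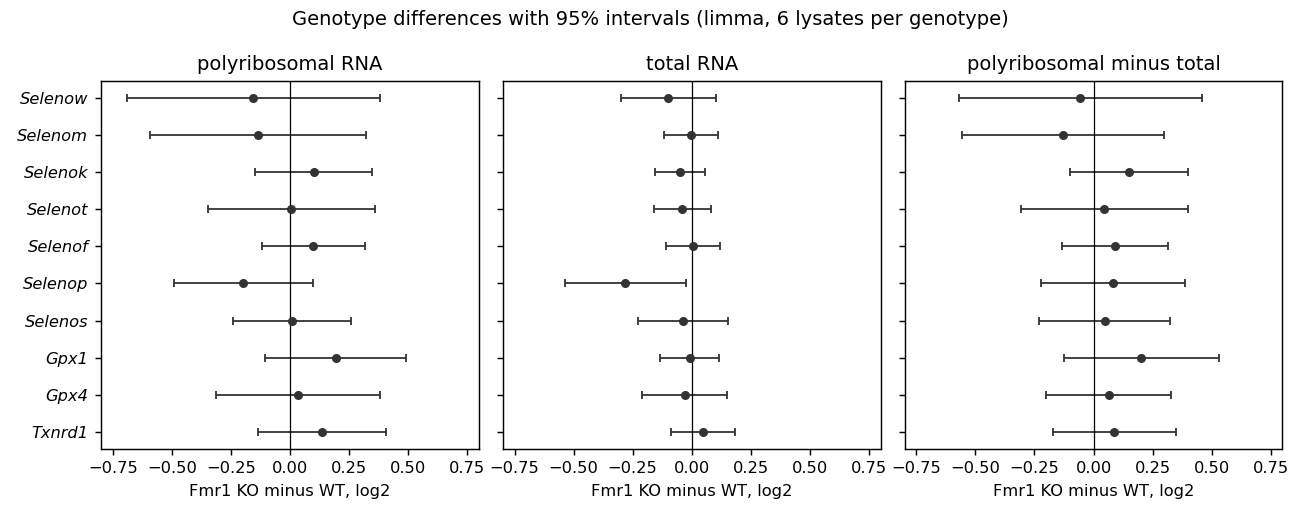
Fmr1 KO minus WT difference (log2) of the brightest probe set of each gene in polyribosomal RNA, total RNA and the polyribosomal minus total contrast, with 95% intervals from limma (6 lysates per genotype). All intervals but 1 include 0, the exception being that of Selenop in total RNA at -0.28, which did not pass after adjustment. Intervals are narrowest in total RNA.

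The arrays were alike in overall signal, with a median log2 value between 3.169 and 3.199. Markers of excitatory neurons (7 of 7 on the array), interneurons (7 of 7) and astrocytes (7 of 7) were at or above a log2 signal of 4 in all total arrays. Of the 3 erythroid markers on the array, all were below 4. Among polyribosomal arrays, WT array 4 had the lowest mean correlation with the others of its group, 0.993.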

How the data were processed

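Per the submitters' processing notes, the authors made the deposited values with GCRMA, which corrects background, normalizes arrays and summarizes probe sets. The deposited values were read as log2 signal from their range. The version, and whether all 24 arrays were normalized together, are not given in the sources used here. No read depth exists for arrays, so their number sets the precision. The replicates were separate pools of mice, per the labels.

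Gene symbols came from the platform annotation, and older ones were updated through RefSeq IDs. Of 45037 probe sets, 34945 had 1 symbol, 932 several and 9160 none. Of several probe sets of a gene, the brightest by its mean over 24 arrays was used unless others are named. Testing was limited to probe sets that reached a log2 value of 4 in 6 or more of the compared arrays. Linear models were fitted in R 4.3.3 by limma 3.58.1 (two-sided moderated tests from eBayes, Benjamini-Hochberg over all probe sets tested, threshold 0.05; the polyribosomal minus total contrast used 1 probe set per gene for counts). Genotypes were compared in polyribosomal RNA, in total RNA and in the 12 polyribosomal minus total differences. Polyribosomal and total arrays of a lysate were matched by genotype and replicate number, because both RNAs come from 1 lysate. After removal of group means, the correlation of arrays so matched was 0.021 to 0.525 for WT and 0.156 to 0.474 for the knockout. WT and Fmr1 KO arrays of equal number correlated at 0.133 to 0.532 in total and -0.137 to 0.625 in polyribosomal RNA, and the labels do not say that a number marks a littermate pair. The scripts were tested on simulated data.

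The members and all gene lists were chosen with earlier results of these data known. Named genes were all members, all other selenoproteins measured, the 2 largest rises and 2 largest falls past the threshold in WT of each further list, and the 5 genes most like the lowest and the highest member. Alternatives were no filter, a higher minimum, another quantile normalization, a trended robust spread, the replicate number as a block, means over probe sets (that over probe sets past the minimum was added after seeing the data) and each replicate number left out. Start windows came from RefSeq (GRCm38.p6). Protein sequences were not used here. Plots used Python 3.11.15 and matplotlib 3.10.9.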

Additional observations from a re-analysis of the deposited data

Results flagged for a closer look

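Each group of 6 arrays was examined for a highest or lowest array that stood far from the other 5 (Dixon's criterion at 95%). Over 26 probe sets of members and other genes examined this way, 7 of 104 groups had such an array, and chance gives about 1 in 20. In polyribosomal RNA, Gpx1 was low in WT array 5, at 7.36 where the others lay between 7.88 and 8.17, and in Fmr1 KO array 1, at 7.69 where the others lay between 8.11 and 8.28. Fmr1 KO array 1 was also low for Gpx4, at 8.79 against 9.45 to 9.77. Selenot was low in Fmr1 KO polyribosomal array 2, at 8.95 against 9.55 to 9.84, and Selenop was high in Fmr1 KO polyribosomal array 3, at 6.49 against 5.76 to 6.01. In total RNA, the _x_at probe set of Selenos was low in WT array 5, at 9.26 against 9.73 to 10.00, and the dimmer Gpx4 probe set was high in Fmr1 KO array 5, at 7.86 against 7.26 to 7.46.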

How the results depend on the processing

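None of the 17 member probe sets passed between genotypes in polyribosomal RNA, total RNA or their difference under any alternative run, including the replicate number as a block (0 passed in each), and no member's adjusted p went below 0.423. The sign of genotype values near 0 was not stable. Without 1 replicate number at a time, values in polyribosomal RNA ran from -0.08 to 0.08 for Selenos, -0.13 to 0.09 for Selenot, -0.03 to 0.09 for Gpx4 and -0.01 to 0.17 for Selenok. With no change of sign, they ran from 0.05 to 0.28 for Gpx1, -0.27 to -0.01 for Selenom, -0.33 to -0.01 for Selenow, 0.06 to 0.16 for Selenof, 0.10 to 0.18 for Txnrd1 and -0.25 to -0.12 for Selenop. In total RNA they ran from -0.07 to 0.00 for Selenos, -0.04 to 0.02 for Gpx1, -0.03 to 0.03 for Selenof and -0.02 to 0.02 for Selenom, which was at 0.01 after another quantile normalization. In the polyribosomal minus total contrast they ran from -0.20 to 0.08 for Selenow, -0.02 to 0.15 for Selenop, 0.00 to 0.12 for Gpx4, -0.04 to 0.12 for Selenos and -0.07 to 0.10 for Selenot. There they ran from 0.04 to 0.29 for Gpx1, 0.05 to 0.22 for Selenok, 0.04 to 0.16 for Selenof, 0.03 to 0.13 for Txnrd1 and -0.25 to 0.00 for Selenom.

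With the mean over all probe sets of a gene, dim ones included, the polyribosomal minus total difference became -0.44 in WT and -0.38 in Fmr1 KO for Selenof, -0.70 and -0.67 for Selenot, -1.44 in WT for Gpx4 and -4.08 in Fmr1 KO for Selenow. Over the probe sets past the minimum, Gpx4 in WT was -1.44 and Selenow in Fmr1 KO -4.08; the cause of the remaining gap between probe sets was not tested. For Sephs2, the mean over probe sets was -0.03 in Fmr1 KO, and its call there was also lost after quantile normalization (adjusted p = 0.0587) and with no replicate block (0.0558), and without replicate 2, 5 or 6 (0.0667 to 0.0812). Sars1 fell by 0.30 in WT, a call lost without replicate 5 (adjusted p = 0.0519). Counts of other selenium genes past the threshold stayed within 1.5 times of 7 lower and 8 higher in WT and of 6 and 7 in Fmr1 KO.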
